A study of Bos taurus with 12 samples.

Results

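The genes SLC7A1, SLC7A3, SLC7A5, SLC7A8, SLC3A2, SLC1A4, SLC1A5, SLC38A1 and SLC38A2 encode proteins that carry amino acids across the cell membrane. They were taken as the entries of the deposited gene count table whose Entrez identifiers pair with these bovine symbols, and all 9 were present among its 19285 entries (Entrez 539465 for SLC7A1, 539065 for SLC7A3, 282369 for SLC7A5, 536818 for SLC7A8, 507107 for SLC3A2, 326577 for SLC1A4, 282355 for SLC1A5, 527491 for SLC38A1 and 338044 for SLC38A2). Polyadenylated RNA was sequenced from F7, a bovine embryonic stem cell line, and by its title the study added pyruvate and a human basic FGF (fibroblast growth factor, made recombinantly) to cells on sparse feeder layers. The 12 libraries form 4 groups of 3, which the labels name 1/7MC+Pyr+FGF, 1/7MC+Pyr, 1/7MC and MC. All 12 are labelled wild type and come from the F7 line, so no other line was compared, and the MC libraries carry the treatment label NC. By their names, 1/7MC+Pyr+FGF, 1/7MC+Pyr and 1/7MC share the 1/7MC culture, and the labels give neither the meaning of MC nor a dose, a time or the species of any feeder cells. Whether the libraries of a group were grown as separate cultures is not stated, and the p-values cover no more than the variation among these libraries.

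Animal cells take up amino acids through families of carriers with overlapping substrates, described mostly for the human and mouse proteins. SLC7A1 and SLC7A3 carry cationic amino acids such as arginine and lysine. SLC7A5 and SLC7A8 exchange neutral amino acids, leucine among them, and reach the membrane only when joined to the heavy chain SLC3A2. SLC1A4 and SLC1A5 are sodium-dependent exchangers of small neutral amino acids, SLC1A5 being known for glutamine, while SLC38A1 and SLC38A2 carry neutral amino acids inward with sodium. Pluripotent stem cells are known for a high demand for amino acids such as glutamine and leucine, and leucine and arginine are sensed by the kinase complex mTORC1.

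None of the 9 genes was too low to measure. The lowest value was 491 counts, of SLC7A8 in one 1/7MC library, and all 9 were among the 13920 genes tested. Library totals ran from 27373759 to 44440972 counts, and values per library are given as counts per 1000000 of that total (CPM). The gene models behind the counts differed within the MC group. Of 128 Ensembl identifiers that several entries share, 0 had differing counts in MC replicates 2 and 3, against 80 to 86 in the remaining 10 libraries, and TPI1 had 12040 counts in replicate 1 of MC but 32 and 25 in the other MC libraries. SLC7A1 was 2.89 times as high in MC replicate 1 as in the mean of MC replicates 2 and 3, and SLC38A1 was 1.54 times as high, while the ratio of the other 7 genes lay between 0.909 and 1.00. Whether the gene models gave the SLC7A1 and SLC38A1 differences was not tested. Because of these differences, each comparison with MC was repeated with a single MC library, replicate 1.

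The defining marker of the labelled cell type, POU5F1, stood between 691 and 1351 CPM in all 12 libraries, and NANOG between 34.6 and 110.2 CPM. Summed marker levels differed between groups, but the fibroblast and feeder sums of 1/7MC overlapped those of 1/7MC+Pyr+FGF and of 1/7MC+Pyr. A sum can also hide markers of 1 list that move in opposite directions. The summed level of 10 pluripotent stem cell markers was 3253 to 3651 CPM in 1/7MC+Pyr+FGF libraries, 4099 to 4362 CPM in 1/7MC+Pyr libraries, 2567 to 2853 CPM in 1/7MC libraries and 4496 to 4541 CPM in MC libraries. The sum of 20 fibroblast and feeder markers was 15352 to 21183 CPM in 1/7MC+Pyr+FGF libraries, 22920 to 36737 CPM in 1/7MC+Pyr libraries, 19213 to 27736 CPM in 1/7MC libraries and 5681 to 5914 CPM in MC libraries. No marker of either list was at 0 in every library of a group.

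Divided by gene length and scaled to a sum of 1000000 per library, the transporters covered a wide range of levels. SLC1A5 had the highest median over the 12 libraries, 221, with a range of 142 to 322. SLC38A2 followed with a median of 171, SLC7A3 with 127 and SLC3A2 with 91.8. SLC7A5 had a median of 41.5, SLC7A1 of 29.1, SLC7A8 of 22.5, SLC1A4 of 21.2 and SLC38A1 of 15.2 on the same length-normalised scale. Ranges of neighbours in this order overlapped, except that the lowest value of SLC3A2, 74.7, was above the highest of SLC7A5, 67.2. The glutamine carrier SLC1A5 and SLC38A2 were thus the most abundant transporter transcripts of the 9, and the heavy chain exceeded either of its light chains.

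**Figure D1:**
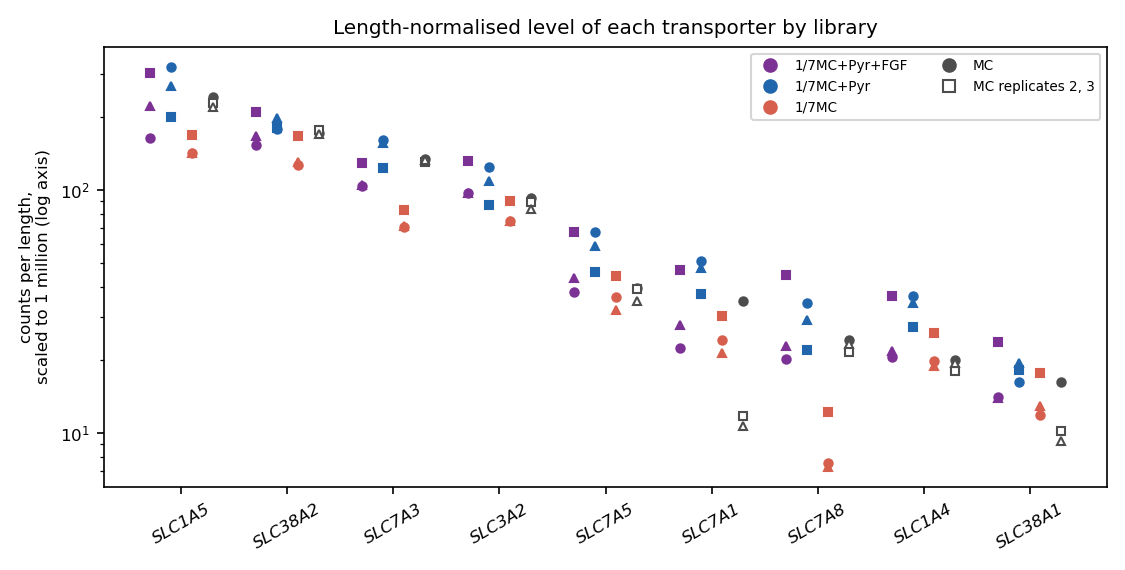
Length-normalised level of each of the 9 transporters in the 12 libraries, as counts divided by gene length and scaled to a sum of 1000000 per library, on a log axis; each point is 1 library, circles, squares and triangles are replicates 1, 2 and 3, and open symbols are MC replicates 2 and 3. Genes run from the highest median (SLC1A5, 221) to the lowest (SLC38A1, 15.2), and SLC7A8 drops furthest in the 1/7MC libraries.

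With pyruvate added to the 1/7MC culture, most of the transporters rose. Against 1/7MC, 7 of the 9 genes were higher in 1/7MC+Pyr at an adjusted p under 0.05 and 0 were lower, with edgeR's quasi-likelihood test and Benjamini-Hochberg adjustment over all genes, where 8.08% of all genes tested were higher and 10.1% lower. The count was 3 when replicate 1 or 3 of 1/7MC or replicate 3 of 1/7MC+Pyr was left out, 4 when replicate 1 of 1/7MC+Pyr was, and 7 when replicate 2 of either group was, while the share of all genes higher ran from 4.09% to 7.79% over these fits. With limma on the deposited length-scaled signal the count was 4, where 6.27% of genes were higher with a pseudocount of 1 and 6.08% with one of 0.1. SLC7A8, SLC7A3 and SLC1A5 had the largest changes among the called genes. The median log2 fold change of the 9 genes was 0.61, and that of all genes tested was -0.01. The CPM ranges of 8 of the 9 genes did not overlap between the groups, all with 1/7MC+Pyr above, as for 13.4% of genes with a mean of at least 5 CPM. In these bulk libraries, fewer cells of a type and less RNA per cell cannot be told apart. Of the pluripotent stem cell markers, 8 of 10 were also higher in 1/7MC+Pyr, and of the fibroblast and feeder markers 5 of 20 were higher and 7 lower; the part of cell make-up in the transporter result was not tested.

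**Figure D2:**
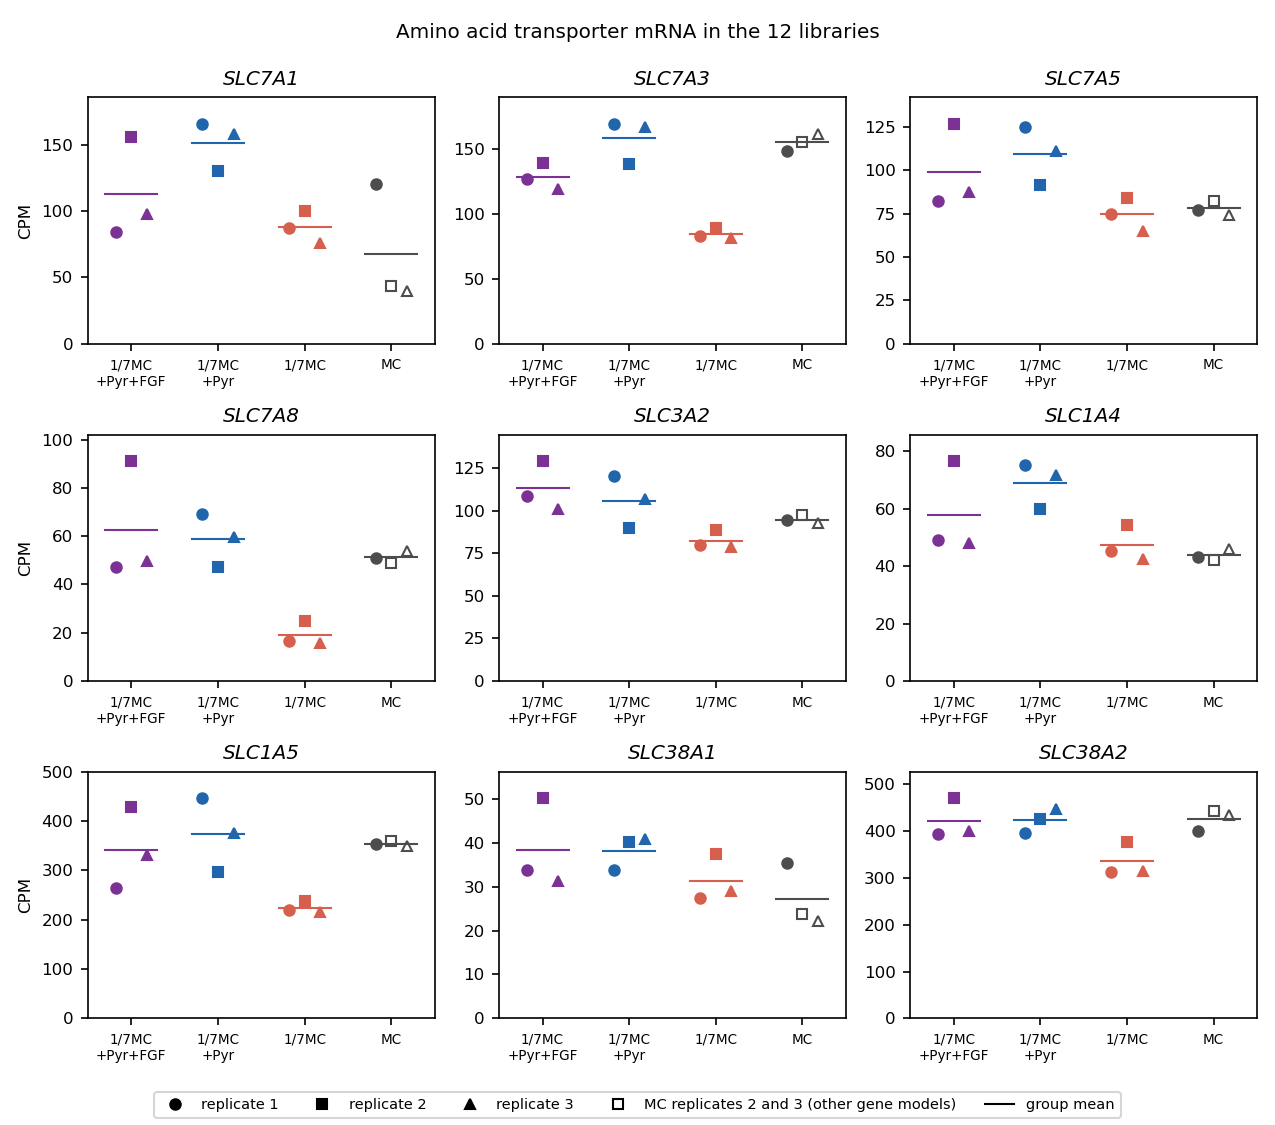
CPM of each transporter in each library, with 1 panel per gene and a linear axis from 0; circles, squares and triangles are replicates 1, 2 and 3, open symbols are MC replicates 2 and 3, and horizontal lines are group means. SLC7A3, SLC7A8 and SLC1A5 are lowest in the 3 1/7MC libraries, and SLC7A1 in MC replicate 1 stands at 120.2 CPM, above the 43.3 and 39.9 CPM of MC replicates 2 and 3.

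Among the cationic carriers, SLC7A3 separated the 1/7MC group from the others most cleanly. SLC7A3 had 126.7, 138.7 and 119.0 CPM in 1/7MC+Pyr+FGF libraries, 169.1, 137.9 and 166.5 CPM in 1/7MC+Pyr libraries, 82.6, 88.6 and 81.3 CPM in 1/7MC libraries, and 148.5, 155.4 and 161.0 CPM in MC libraries. All 9 libraries of the other groups were above all 3 of 1/7MC. SLC7A3 was higher in 1/7MC+Pyr than in 1/7MC by 0.97 ± 0.10 on the log2 scale (SE, n = 3 libraries each, adjusted p = 4.83e-05 with edgeR's quasi-likelihood test). It was higher in 1/7MC+Pyr+FGF than in 1/7MC by 0.69 ± 0.10 (adjusted p = 0.000326), and in 1/7MC it was lower than in MC, at -0.92 ± 0.10 (adjusted p = 1.38e-05). These 3 calls held in all alternatives run for them, including the fit with only replicate 1 of MC, where the log2 fold change of 1/7MC against MC was -0.83 with an adjusted p of 0.0014 (largest over the 15 alternatives). All of these comparisons share the 1/7MC libraries, so they are not independent of each other.

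SLC7A1, the more widely expressed cationic carrier in mammals, had 84.6, 155.8 and 97.7 CPM in 1/7MC+Pyr+FGF libraries, 165.9, 130.0 and 157.8 CPM in 1/7MC+Pyr libraries, 87.6, 100.5 and 75.9 CPM in 1/7MC libraries, and 120.2, 43.3 and 39.9 CPM in MC libraries. The 1/7MC+Pyr libraries were all above the 1/7MC libraries, whereas 1/7MC+Pyr+FGF spanned both. The log2 fold change of 1/7MC+Pyr against 1/7MC was 0.84 ± 0.35 (SE), with an adjusted p of 0.125 in the fit of all 12 libraries. That fit takes its spread for SLC7A1 partly from the MC libraries with differing gene models. In a fit of the 9 libraries without MC, added after the data were seen, the same change had an SE of 0.20 and an adjusted p of 0.00822, and over 17 alternatives the adjusted p ran from 0.000311 to 0.312 and was under 0.05 in 4. Against MC, the sign of the SLC7A1 change in 1/7MC depended on the MC libraries: the log2 fold change was 0.34 ± 0.35 (adjusted p = 0.453) with all 3, -0.46 (adjusted p = 0.260) with MC replicate 1 alone, and 1.03 (adjusted p = 0.00115) without MC replicate 1; over its 15 alternatives the adjusted p reached 0.879.

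The leucine exchangers differed in how far they moved. SLC7A8 had 47.2, 91.1 and 49.6 CPM in 1/7MC+Pyr+FGF libraries, 69.0, 47.4 and 59.6 CPM in 1/7MC+Pyr libraries, 16.8, 25.0 and 15.9 CPM in 1/7MC libraries, and 51.2, 48.9 and 53.7 CPM in MC libraries. The 1/7MC libraries lay below every other library. SLC7A8 was 1.67 ± 0.25 higher in 1/7MC+Pyr than in 1/7MC on the log2 scale (SE, adjusted p = 0.000794), a larger fold change than that of 99.5% of all genes tested. The change of 1/7MC+Pyr+FGF against 1/7MC was 1.79 ± 0.25 (adjusted p = 0.000306), and that of 1/7MC against MC was -1.45 ± 0.25 (adjusted p = 0.000568). Each of these 3 SLC7A8 calls also held in all of its alternatives.

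SLC7A5, the other light chain, had 82.4, 126.8 and 87.3 CPM in 1/7MC+Pyr+FGF libraries, 125.0, 91.6 and 111.3 CPM in 1/7MC+Pyr libraries, 74.9, 83.8 and 65.2 CPM in 1/7MC libraries, and 77.2, 82.4 and 74.4 CPM in MC libraries. The MC libraries lay inside the range of the 1/7MC libraries, unlike those of SLC7A8, and the 1/7MC+Pyr libraries were above both. SLC7A5 was higher in 1/7MC+Pyr than in 1/7MC by 0.61 ± 0.17 on the log2 scale (adjusted p = 0.0241), and in 1/7MC+Pyr+FGF than in 1/7MC by 0.49 ± 0.17 (adjusted p = 0.0454). The first call was lost without replicate 1 or 3 of 1/7MC or of 1/7MC+Pyr, with an adjusted p of 0.071 to 0.107. The second was lost without any one 1/7MC library or without 1/7MC+Pyr+FGF replicate 2, with an adjusted p of 0.0515 to 0.187. The change of 1/7MC against MC was -0.10 ± 0.17 (adjusted p = 0.653).

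The heavy chain SLC3A2 had 108.7, 129.1 and 101.1 CPM in 1/7MC+Pyr+FGF libraries, 120.6, 89.5 and 106.9 CPM in 1/7MC+Pyr libraries, 80.1, 88.8 and 78.4 CPM in 1/7MC libraries, and 94.5, 97.1 and 92.6 CPM in MC libraries. Its 1/7MC libraries were the 3 lowest of the 12, but 1/7MC+Pyr replicate 2 exceeded 1/7MC replicate 2 by less than 1 CPM. SLC3A2 was higher in 1/7MC+Pyr+FGF than in 1/7MC by 0.54 ± 0.12 on the log2 scale (adjusted p = 0.00606), a call that held in all 17 alternatives. It was higher in 1/7MC+Pyr than in 1/7MC by 0.42 ± 0.12 (adjusted p = 0.0312), and lost this call without replicate 1 or 3 of either group, with an adjusted p of 0.0951 to 0.118. The change of 1/7MC against MC was -0.24 ± 0.12 and did not pass (adjusted p = 0.127), although the ranges of the groups did not overlap.

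SLC1A5, the sodium-dependent exchanger that brings in glutamine, had 263.9, 429.6 and 331.8 CPM in 1/7MC+Pyr+FGF libraries, 446.8, 296.4 and 376.8 CPM in 1/7MC+Pyr libraries, 219.7, 238.0 and 214.8 CPM in 1/7MC libraries, and 354.4, 359.0 and 349.5 CPM in MC libraries. The 1/7MC libraries were again the 3 lowest, and the 2 supplemented groups spread more widely than MC did. SLC1A5 was higher in 1/7MC+Pyr than in 1/7MC by 0.80 ± 0.17 on the log2 scale (adjusted p = 0.00651), a call kept in all 17 alternatives, and in 1/7MC+Pyr+FGF than in 1/7MC by 0.69 ± 0.17 (adjusted p = 0.00959). The second call was lost with limma on the length-scaled signal, at an adjusted p of 0.0621 and 0.0622 with pseudocounts of 1 and 0.1, and kept in 15 of 17 alternatives (lowest adjusted p 6.4e-06). In 1/7MC it was lower than in MC, at -0.70 ± 0.17 (adjusted p = 0.0050). With only replicate 1 of MC in the fit, that change was -0.67 with an adjusted p of 0.0622, the only one of 15 alternatives in which it did not pass (the lowest adjusted p was 0.000439).

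SLC1A4, its relative for alanine, serine, cysteine and threonine, had 49.1, 76.6 and 48.0 CPM in 1/7MC+Pyr+FGF libraries, 75.1, 59.8 and 71.5 CPM in 1/7MC+Pyr libraries, 45.1, 54.3 and 42.4 CPM in 1/7MC libraries, and 43.1, 42.0 and 46.0 CPM in MC libraries. The 1/7MC+Pyr libraries lay above all 1/7MC and MC libraries, and the 1/7MC and MC ranges overlapped. SLC1A4 was higher in 1/7MC+Pyr than in 1/7MC by 0.60 ± 0.17 on the log2 scale (adjusted p = 0.0299). This call was lost without replicate 1 or 3 of either group, with an adjusted p of 0.0935 to 0.121. The change of 1/7MC+Pyr+FGF against 1/7MC was 0.38 ± 0.17 (adjusted p = 0.125), and that of 1/7MC against MC was 0.07 ± 0.17 (adjusted p = 0.751).

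SLC38A2, the system A carrier that is known from cultured mammalian cells to be induced when amino acids run short, had 394.2, 470.3 and 399.2 CPM in 1/7MC+Pyr+FGF libraries, 395.9, 426.0 and 446.5 CPM in 1/7MC+Pyr libraries, 312.8, 377.5 and 315.4 CPM in 1/7MC libraries, and 399.4, 443.8 and 435.2 CPM in MC libraries. Once more the 1/7MC libraries were the 3 lowest of the 12. SLC38A2 was higher in 1/7MC+Pyr than in 1/7MC by 0.40 ± 0.11 on the log2 scale (adjusted p = 0.0212) and in 1/7MC+Pyr+FGF than in 1/7MC by 0.42 ± 0.11 (adjusted p = 0.0119). Both calls were lost without 1/7MC replicate 1 or 3, with an adjusted p of 0.0903 or more for the first and of 0.0513 and 0.0534 for the second, and the first also when 1/7MC+Pyr replicate 3 was left out. In 1/7MC it was lower than in MC, at -0.38 ± 0.11 (adjusted p = 0.0100), but at -0.26 (adjusted p = 0.286, the highest of its 15 alternatives, the lowest being 0.0028) with MC replicate 1 alone.

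SLC38A1, the related sodium-coupled carrier, had 33.9, 50.2 and 31.3 CPM in 1/7MC+Pyr+FGF libraries, 33.8, 40.2 and 40.9 CPM in 1/7MC+Pyr libraries, 27.5, 37.4 and 29.1 CPM in 1/7MC libraries, and 35.5, 23.8 and 22.2 CPM in MC libraries. The ranges of every pair of groups overlapped. No comparison of SLC38A1 passed the threshold with edgeR in the fit of all 12 libraries: the log2 fold change was 0.35 ± 0.21 for 1/7MC+Pyr against 1/7MC (adjusted p = 0.285) and 0.38 ± 0.21 for 1/7MC+Pyr+FGF against 1/7MC (adjusted p = 0.197).

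**Figure D3:**
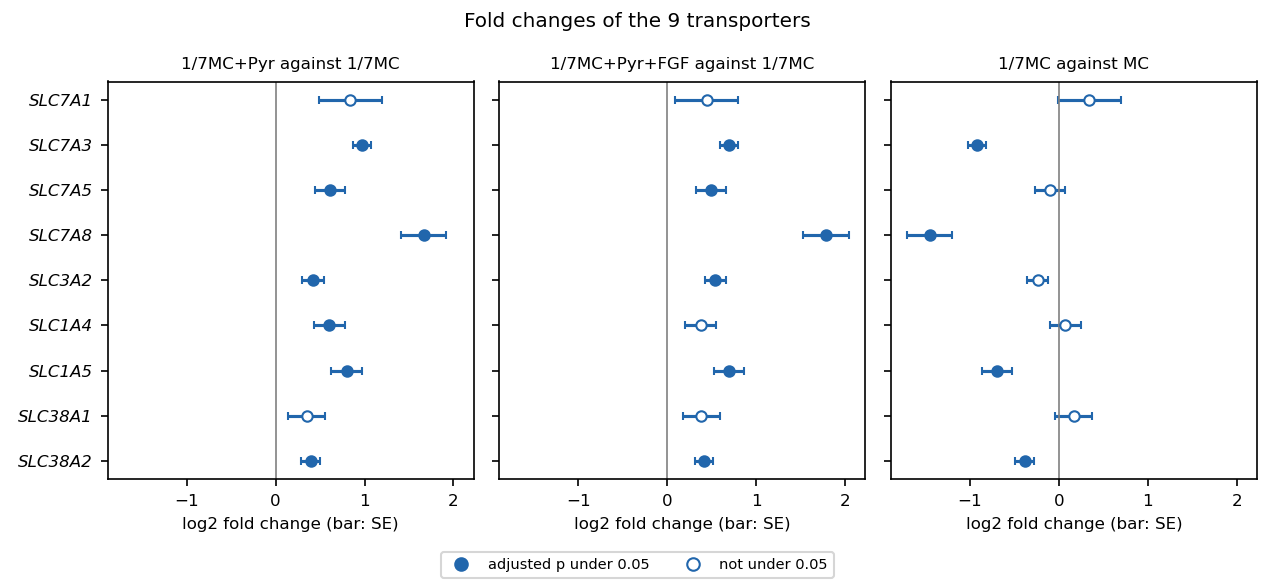
Log2 fold changes of the 9 transporters in 1/7MC+Pyr against 1/7MC, 1/7MC+Pyr+FGF against 1/7MC and 1/7MC against MC, from edgeR's quasi-likelihood fit of all 12 libraries; bars are SEs, and filled points have an adjusted p under 0.05. SLC7A8 lies farthest from 0 in each panel, at 1.67, 1.79 and -1.45, and the filled points are to the right in the first 2 panels and to the left in the third.

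Set against 1/7MC, 1/7MC+Pyr+FGF had 6 of the 9 transporters higher and 0 lower at an adjusted p under 0.05, where 11.9% of all genes tested were higher and 15.7% lower. The 6 were SLC7A3, SLC7A5, SLC7A8, SLC3A2, SLC1A5 and SLC38A2, and they were among the 7 called in 1/7MC+Pyr against the same 1/7MC libraries. The median log2 fold change of the 9 genes was 0.49, and that of all genes was 0.01. The ranges of 5 genes did not overlap, with 1/7MC+Pyr+FGF above, as for 16.6% of genes with a mean of at least 5 CPM. Leaving out 1 library at a time, 4 to 6 were called, where 7.48% to 9.7% of genes were higher. With limma on the length-scaled signal 3 were called, where 6.45% of genes were higher with a pseudocount of 1 and 6.55% with one of 0.1. The pluripotent stem cell markers were higher in 7 of 10 and lower in 1, and the fibroblast and feeder markers were higher in 1 of 20 and lower in 7.

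FGF on top of pyruvate gave no called change in any transporter. With edgeR, 0 of the 9 passed in 1/7MC+Pyr+FGF against 1/7MC+Pyr, where 0.639% of all genes tested were higher and 2.12% lower. DESeq2 also called 0 of the 9, where it called 6.48% of genes in either direction. At an unadjusted p under 0.05, 0 were higher and 1 was lower, where 8.46% of all genes were higher and 10.4% lower. The 1 was the arginine carrier SLC7A3, at -0.28 ± 0.10 on the log2 scale (adjusted p = 0.163). The other 8 log2 fold changes lay between -0.40 ± 0.35 (SLC7A1) and 0.12 ± 0.12 (SLC3A2). The ranges of the groups overlapped for all 9, while 8.38% of genes with a mean of at least 5 CPM lay wholly above and 11.5% wholly below. These values do not show that the groups were alike, since SEs of up to 0.35 leave room for changes of that size.

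In 1/7MC against MC, 4 of the 9 transporters were lower and 0 higher, where 21.3% of all genes tested were lower and 23.7% higher. The 4 were SLC7A3, SLC7A8, SLC1A5 and SLC38A2. The ranges of 5 genes, these and SLC3A2, did not overlap, with 1/7MC below, as for 27.6% of genes with a mean of at least 5 CPM. With replicate 1 as the single MC library, 2 of 9 were lower, SLC7A3 and SLC7A8, where 9.96% of genes were lower and 14% higher; in that fit the lone MC library is assumed to vary like the other groups. All 20 fibroblast and feeder markers were higher in 1/7MC and 9 of 10 pluripotent stem cell markers lower, and a change in the cells present cannot be told apart from a change within cells.

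Against MC, the supplemented groups showed few called changes. SLC7A1, SLC7A5 and SLC1A4 were higher in 1/7MC+Pyr than in MC, 3 of 9 where 15.2% of genes were higher and 13.2% lower. The log2 fold change was 1.19 ± 0.36 for SLC7A1 (adjusted p = 0.0261), 0.51 ± 0.17 for SLC7A5 (adjusted p = 0.0378) and 0.68 ± 0.17 for SLC1A4 (adjusted p = 0.0117). With MC replicate 1 alone 0 of 9 passed with edgeR, where 9.71% of genes did, and 2 of the 9, SLC7A5 and SLC1A4, were higher at an unadjusted p under 0.05, where 12.8% of genes were. SLC1A4 then stood at 0.73 with an adjusted p of 0.107, the highest of its 15 alternatives (the lowest was 0.00198). SLC7A1 and SLC7A5 lost their calls without MC replicate 2 or 3 or without 1/7MC+Pyr replicate 1 or 3, with an adjusted p of 0.0697 to 0.101 for SLC7A1 and 0.0703 to 0.135 for SLC7A5. Over its 15 alternatives the SLC7A1 change ran from 0.39 to 1.875 and stayed called in 9. SLC7A1 had 120.2 CPM in MC replicate 1, against 43.3 and 39.9 CPM in MC replicates 2 and 3, which have other gene models. With edgeR, 0 of 9 passed in 1/7MC+Pyr+FGF against MC, where 17.1% of all genes were higher and 15.4% lower. At an unadjusted p under 0.05, 5 were higher and 1 lower, where 23.3% of all genes were higher and 20.5% lower. DESeq2 called 2 higher, SLC1A4 and SLC38A1, where it called 18.9% of genes higher. Each of the 2 passed in 3 of 15 alternatives, with log2 fold changes of 0.20 to 0.57 for SLC1A4 and 0.17 to 0.78 for SLC38A1. SLC38A1 had 35.5 CPM in MC replicate 1, against 23.8 and 22.2 CPM in MC replicates 2 and 3, which have other gene models. SLC7A8, the gene with the largest shortfall in 1/7MC, was 0.22 ± 0.25 from MC in 1/7MC+Pyr (adjusted p = 0.541) and 0.34 ± 0.25 in 1/7MC+Pyr+FGF (adjusted p = 0.314).

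The ratio of the 2 light chains differed between groups, and it does not depend on library depth. On the length-normalised scale, SLC7A8 over SLC7A5 was 0.529, 0.664 and 0.525 in 1/7MC+Pyr+FGF libraries, 0.510, 0.478 and 0.494 in 1/7MC+Pyr libraries, 0.207, 0.276 and 0.225 in 1/7MC libraries, and 0.612, 0.549 and 0.667 in MC libraries. All 1/7MC libraries were below all others, so the groups differed unequally in SLC7A8 and SLC7A5. SLC1A4 over SLC1A5 was 0.126, 0.120 and 0.0977 in 1/7MC+Pyr+FGF libraries, 0.114, 0.136 and 0.128 in 1/7MC+Pyr libraries, 0.139, 0.154 and 0.133 in 1/7MC libraries, and 0.0822, 0.0790 and 0.0889 in MC libraries. The 3 MC libraries were the lowest of the 12 for this ratio. SLC7A3 over SLC7A1 lay between 2.73 and 4.64 in the 10 libraries counted alike, and at 11.1 and 12.5 in MC replicates 2 and 3. SLC38A1 over SLC38A2 lay between 0.0836 and 0.114 in the same 10 libraries, and at 0.0573 and 0.0544 in MC replicates 2 and 3. No test was run on the ratios.

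**Figure D4:**
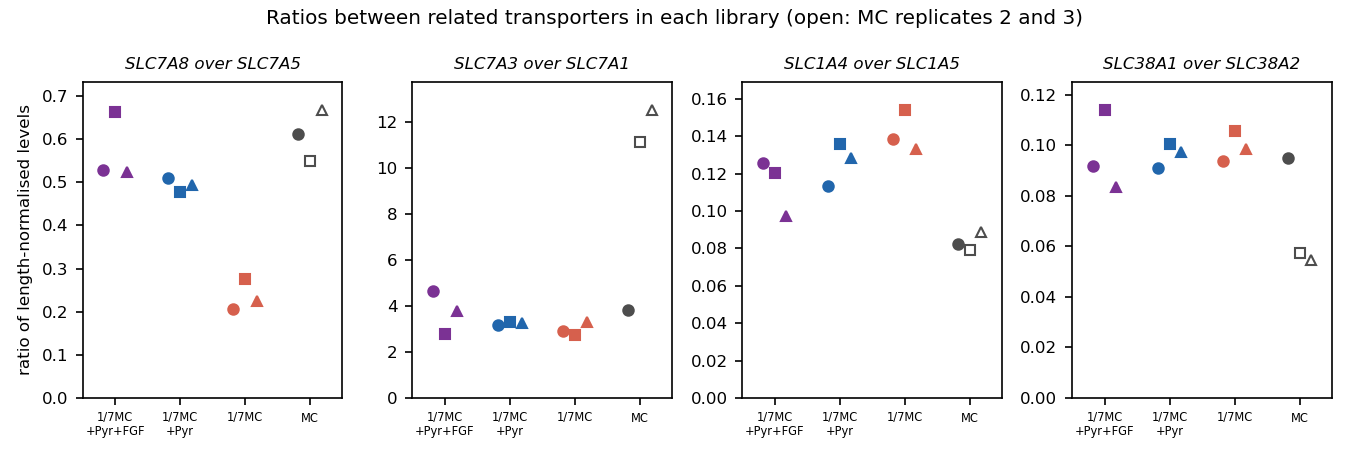
Ratio of length-normalised levels within each library for 4 pairs of related transporters; each point is 1 library, circles, squares and triangles are replicates 1, 2 and 3, and open symbols are MC replicates 2 and 3. SLC7A8 over SLC7A5 is 0.207 to 0.276 in 1/7MC and 0.478 or more in all other libraries.

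Within the 1/7MC groups, though not within MC, the transporters tended to share the order of the libraries. In 1/7MC+Pyr+FGF, replicate 2 had the highest value of all 9 genes, as for 37.1% of genes with a mean of at least 5 CPM. In 1/7MC+Pyr, replicate 1 was highest for 7 genes, as for 38.1% of those genes, and replicate 2 lowest for 7, as for 36.7%. In 1/7MC, replicate 2 was again highest for all 9, as for 39.8%. Within MC, replicates 1, 2 and 3 were highest for 2, 4 and 3 genes. Of genes with a mean of at least 5 CPM, they were highest for 42.9%, 30.5% and 26.7%. Summed over the 9 genes, the level was 1191, 1668 and 1265 CPM in 1/7MC+Pyr+FGF libraries, 1601, 1319 and 1538 CPM in 1/7MC+Pyr libraries, 947, 1094 and 918 CPM in 1/7MC libraries, and 1324, 1296 and 1275 CPM in MC libraries. Every supplemented library was above every 1/7MC library in this sum.

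A measure of library make-up moved with this spread. The share of counts in ribosomal protein genes was 6.46%, 4.20% and 5.13% in 1/7MC+Pyr+FGF libraries, 4.06%, 5.40% and 4.48% in 1/7MC+Pyr libraries, 5.98%, 4.64% and 5.62% in 1/7MC libraries, and 5.45%, 5.39% and 5.71% in MC libraries. In the 3 1/7MC groups, the library with the lowest share had the highest transporter sum and, at 22.8%, 23.5% and 23.4%, the highest share of counts in genes of 5000 bases or more. The ribosomal protein share was then used as a covariate in the fit of the 9 libraries without MC, an alternative chosen after the data were seen. In it, 8 of 9 genes were higher in 1/7MC+Pyr than in 1/7MC, where 13% of genes were higher. SLC7A1, not called in the fit of all 12 libraries, was also called in the fit of these 9 without the covariate. With the covariate, SLC7A8 changed by 1.35, SLC7A3 by 0.89 and SLC7A1 by 0.59 on the log2 scale, each the smallest of its 17 alternatives. In the fit of all 12 libraries SLC7A8 stood at 1.67 and SLC7A3 at 0.97, so the higher count did not go with larger changes of these genes. In the same fit, all 9 were higher in 1/7MC+Pyr+FGF than in 1/7MC, where 22.9% of genes were higher.

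**Figure D5:**
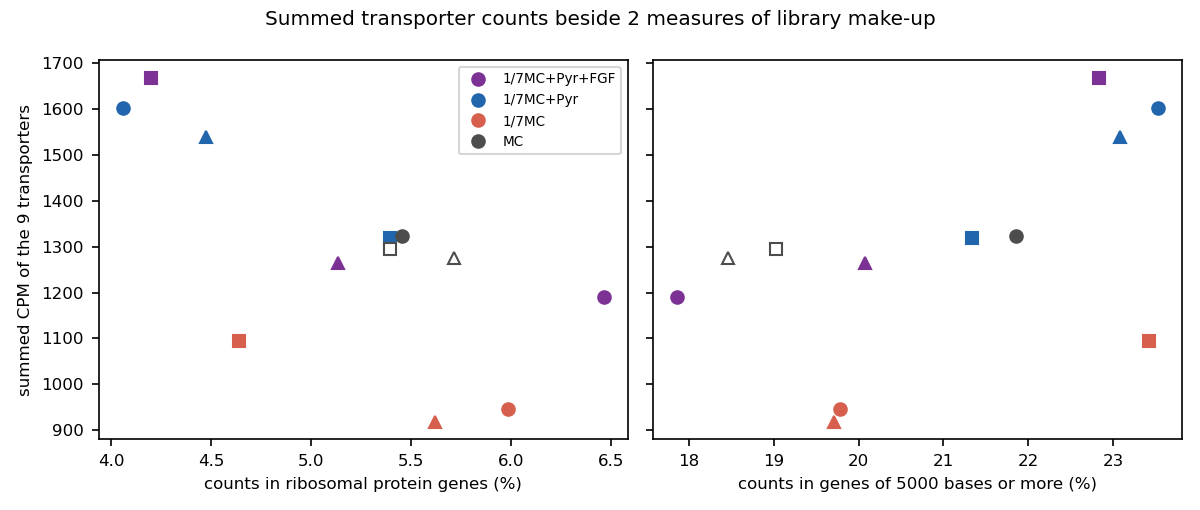
Summed CPM of the 9 transporters in each library against the percentage of its counts in ribosomal protein genes (left) and in genes of 5000 bases or more (right); colours are groups, circles, squares and triangles are replicates 1, 2 and 3, and open symbols are MC replicates 2 and 3. Within each 1/7MC group the library with the smallest ribosomal protein share has the largest sum, and the 3 1/7MC libraries (918 to 1094 CPM) lie below all others.

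Called genes in the rest of the pathway lay in both directions. Of 27 other plasma membrane amino acid transporters tested, 3 were higher in 1/7MC+Pyr than in 1/7MC and 0 were lower, near the 8.08% of all genes that were higher, with a median log2 fold change of 0.28. SLC38A5, a glutamine carrier of the same family as SLC38A2, had 83.9, 89.2 and 59.8 CPM in 1/7MC+Pyr+FGF libraries, 78.7, 59.8 and 69.6 CPM in 1/7MC+Pyr libraries, 34.3, 32.1 and 29.0 CPM in 1/7MC libraries, and 45.7, 48.8 and 51.5 CPM in MC libraries. It was higher in 1/7MC+Pyr than in 1/7MC by 1.19 ± 0.15 on the log2 scale (adjusted p = 0.000235). The taurine carrier SLC6A6 rose by 0.85 ± 0.16 (adjusted p = 0.0032) and the glutamate carrier SLC1A6 by 0.60 ± 0.12 (adjusted p = 0.00486) in the same comparison, and none of these 3 lost its call when 1 library was left out. The count was 5 when 1/7MC replicate 2 was left out, and over the fits without 1 library 4.09% to 7.79% of all genes were higher. It was 8 with DESeq2, for which the share of all genes in this comparison is not given here, so that count has no background. In 1/7MC+Pyr+FGF against 1/7MC, 5 of the 27 were higher and 1 was lower, where 11.9% of all genes were higher and 15.7% lower, SLC38A5 among the higher at 1.37 ± 0.15 (adjusted p = 5.27e-05). SLC7A11, the cystine light chain that also pairs with SLC3A2, was higher there by 1.57 ± 0.39 (adjusted p = 0.0109) at a low level of 1.69, 3.27 and 1.45 CPM in 1/7MC+Pyr+FGF libraries against 0.581, 1.08 and 0.595 CPM in 1/7MC libraries.

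In 1/7MC against MC, 6 of these 27 transporters were higher and 6 lower, near the shares of all genes, 23.7% higher and 21.3% lower. With MC replicate 1 alone 3 were higher and 4 lower, where 14% of all genes were higher and 9.96% lower. The neutral amino acid carrier SLC43A2 was higher by 1.91 ± 0.20 on the log2 scale (adjusted p = 9.11e-06), at 58.7, 70.3 and 52.8 CPM in 1/7MC libraries against 16.9, 16.8 and 13.4 CPM in MC libraries. SLC1A3, a glutamate carrier, was higher by 1.73 ± 0.25 (adjusted p = 0.000124), and SLC6A15, a neutral amino acid carrier, was lower, at -1.47 ± 0.14 (adjusted p = 3.98e-06). All 3 kept their calls when any 1 library was left out. The count of higher genes was 10 without MC replicate 1, and 3 when either MC replicate 3 or 1/7MC replicate 2 was left out. Over the fits without 1 library, 19.2% to 27.2% of all genes were higher. The fibroblast and feeder markers named above were also higher in 1/7MC than in MC, and their part was not tested.

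In the supplemented groups against 1/7MC, lysosomal and mitochondrial carriers and amino acid sensing genes were called in both directions. The same held in 1/7MC against MC, whose counts are not given here. There the sensing gene FNIP2 was higher by 1.31 ± 0.18 on the log2 scale (adjusted p = 0.000101 with edgeR). RRAGD was lower, at -1.53 ± 0.17 (adjusted p = 1.38e-05). With MC replicate 1 alone these changes were 0.93 and -0.96. Of 17 lysosomal and mitochondrial carriers tested, 3 were higher and 2 lower in 1/7MC+Pyr than in 1/7MC, where 8.08% of all genes were higher and 10.1% lower. Without replicate 1 or 3 of either group 0 were higher and 2 or 3 lower. Over the fits of this comparison without 1 library, 4.09% to 7.79% of all genes were higher and 5.83% to 8.74% lower. The lysosomal carrier SLC36A4 was lower in that comparison, at -0.97 ± 0.14 (adjusted p = 0.000535). Of 33 genes of amino acid sensing by mTORC1, 2 were higher and 4 lower, near the same shares of all genes, and the counts ran from 1 to 3 higher and 1 to 3 lower when 1 library was left out. The leucine sensor SESN2 was higher by 0.53 ± 0.10 (adjusted p = 0.00266), at 57.3, 56.6 and 59.9 CPM in 1/7MC+Pyr libraries against 39.7, 46.2 and 39.7 CPM in 1/7MC libraries. RRAGB, a Rag GTPase, was lower, at -0.49 ± 0.11 (adjusted p = 0.00819). In 1/7MC+Pyr+FGF against 1/7MC, 4 of the sensing genes were higher and 4 lower, near the 11.9% and 15.7% of all genes. When any 1 library was left out, 1 or 2 were higher and 3 or 4 lower, where 7.48% to 9.7% of all genes were higher and 11.2% to 13.2% lower. RRAGB stood at -0.95 ± 0.11 in this comparison (adjusted p = 6.95e-05).

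Of 19 genes of glutamine, arginine and leucine use, 3 were higher and 1 was lower in 1/7MC+Pyr than in 1/7MC, where 8.08% of all genes were higher and 10.1% lower. The count of higher genes was 1 when any one 1/7MC library or 1/7MC+Pyr replicate 3 was left out, and 2 when 1/7MC+Pyr replicate 2 was. Over the fits without 1 library, 4.09% to 7.79% of all genes were higher. ASS1, which joins citrulline and aspartate on the route to arginine, had 8.64, 8.72 and 8.99 CPM in 1/7MC+Pyr+FGF libraries, 9.87, 8.14 and 8.21 CPM in 1/7MC+Pyr libraries, 28.8, 23.1 and 27.6 CPM in 1/7MC libraries, and 8.20, 7.41 and 6.43 CPM in MC libraries. It was high in the 3 libraries in which the arginine carrier SLC7A3 was low. ASS1 was lower in 1/7MC+Pyr than in 1/7MC, at -1.54 ± 0.13 on the log2 scale (adjusted p = 1.26e-05), and higher in 1/7MC than in MC by 1.81 ± 0.13 (adjusted p = 5.18e-07), also with MC replicate 1 alone (1.68, adjusted p = 4.62e-05). GLUD1, which turns glutamate into oxoglutarate, was higher in 1/7MC+Pyr than in 1/7MC by 0.52 ± 0.09 (adjusted p = 0.00192). In 1/7MC against MC, 1 of the 19 was higher and 10 lower, where 23.7% of all genes were higher and 21.3% lower. With MC replicate 1 alone 1 was higher and 4 lower, where 14% of genes were higher and 9.96% lower. In 1/7MC+Pyr+FGF against 1/7MC, 8 were higher and 1 lower, where 11.9% of all genes were higher and 15.7% lower. The higher genes were 4 when 1/7MC replicate 2 was left out and 5 when 1/7MC+Pyr+FGF replicate 1 was. Over the fits without 1 library, 7.48% to 9.7% of all genes were higher.

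The genes most like each transporter were found as those with the smallest root-mean-square distance between log2 CPM profiles over the 12 libraries, each centred on its own mean, among 13919 other genes. Such profiles share libraries, depth and, in MC replicates 2 and 3, gene models. SLC1A4 and SLC7A5 were close to each other, at a distance of 0.11, and SLC7A5 ranked second among all genes for SLC1A4, after SLC6A9 at 0.10, which encodes a glycine transporter. SLC7A3 and SLC1A5 were each other's nearest transporter at 0.17. SLC7A8 had the largest distance to its nearest transporter, 0.44 to SLC7A3. Its own profile also varied the most among the transporters, with a root-mean-square of 0.77, and such distances grow with that spread. SLC7A3 ranked 133 among all genes for SLC7A8, while the nearest transporter of SLC38A2 ranked 528 for that gene. The nearest genes of SLC7A8 were B3GNT7 and KDR at 0.20 and 0.22. The heavy chain SLC3A2 was nearest to LRP8 and P4HB, at 0.07 and 0.08. SLC7A1 was nearest to SLC36A1 and MGAT5, at 0.20 and 0.21, and SLC1A5 to FLNC and NCLN, at 0.07 each.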

How the data were processed

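The authors deposited raw counts per gene, 1 column per library. Per the submitters' processing notes, the tools were HISAT2 2.1.0, featureCounts, fastp 0.19.7 and Subread 2.0, and the build was bosTau9; their settings and the annotation are not given in the sources used here. Per the labels' protocols, libraries were made from poly-T selected RNA with a NEBNext Ultra kit, and strand marking is not mentioned. A second deposited table holds a length-scaled signal, each count divided by gene length times 1 constant of the authors for all libraries (4.94), without correction for depth; it was rescaled to 1000000 per library and used only in an alternative, where TPM had been planned for.

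Symbols were matched through a RefSeq table of another build, so no coordinates are given; 18803 of the 18885 entries kept have one. The 400 entries that share an identifier with another entry (1.07% to 1.40% of counts) were left out. Counts were tested with edgeR 4.0.16 (R 4.3.3) over all 12 libraries with TMM scaling, filterByExpr and 1 coefficient per group, with Benjamini-Hochberg adjustment across the 13920 genes tested; an adjusted p under 0.05 counts as changed. CPM are counts per 1000000 of the library total. The pipeline was tested on data simulated for 1/7MC against MC. It recovered 41.8% of 1.5-fold, 83.6% of 2-fold and 89.4% of 4-fold changes, and called 0.059% of unchanged genes. A change of 1.5-fold that was not called is therefore not shown to be absent. Alternatives used DESeq2 1.42.0, limma 3.58.1 with pseudocounts of 1 and 0.1, other filters and scaling, and leaving out libraries. The transporters and all gene lists were chosen with earlier results of these data known. Genes of each other list given with a fold change were chosen among the 3 with the largest called change per direction and comparison. Not all of these were given, and some left out had larger changes. Deviations from group means gave little sign that replicate numbers pair libraries, with 2 of 18 same-numbered pairs correlated above 0.1 (range -0.32 to 0.33). Such correlations cannot exclude that same-numbered libraries shared a batch. No replicates agreed within sampling noise.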

Additional observations from a re-analysis of the deposited data

How the results depend on the processing

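No fold change that passed the threshold reversed in any alternative; of the alternative values of those called folds, 272 stayed called and 54 did not. Of the values of folds not called, 489 stayed so, 16 passed and 33 changed sign. Counts of transporters called moved as follows. The rescaled length-scaled signal with limma gave 4 in 1/7MC+Pyr against 1/7MC and 3 in 1/7MC+Pyr+FGF against 1/7MC with either pseudocount. MC replicate 1 alone gave 2 in 1/7MC against MC and 0 in 1/7MC+Pyr against MC, and DESeq2 gave 2 in 1/7MC+Pyr+FGF against MC. Leaving out 1 library gave 3 to 7 in 1/7MC+Pyr against 1/7MC, where 10.1% to 15.9% of all genes were called in either direction. It gave 4 to 6 in 1/7MC+Pyr+FGF against 1/7MC, where 19.1% to 22.7% were. In 1/7MC+Pyr+FGF against 1/7MC+Pyr it gave 0 to 0, where 0.898% to 3.11% were. Against MC it gave 4 to 5 in 1/7MC, where 35.5% to 49.3% were. There it gave 1 to 4 in 1/7MC+Pyr, where 18.2% to 36.5% were, and 0 to 2 in 1/7MC+Pyr+FGF, where 21.4% to 37.8% were. The replicate block, whose numbers are not known to pair the libraries, gave 6 in 1/7MC+Pyr against 1/7MC and moved no count of calls by over 1.5 times.

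Signs changed only for folds not called (log2). For 1/7MC+Pyr+FGF against 1/7MC+Pyr, SLC38A2 was -0.00099 with a mean of at least 5 CPM and -0.010 with MC replicate 1 alone. The signal gave SLC7A8 -0.028 and -0.031, SLC38A1 -0.088 and -0.094 and SLC38A2 -0.083 and -0.084 with pseudocounts of 1 and 0.1, and the ribosomal protein share as a covariate gave SLC7A5 0.030 and SLC1A5 0.067. MC replicate 1 alone gave SLC7A1 -0.46 and SLC38A1 -0.19 in 1/7MC against MC, and SLC7A1 -0.041 in 1/7MC+Pyr+FGF against MC. With 1 library left out, the ranges in 1/7MC+Pyr+FGF against 1/7MC+Pyr were -0.25 to 0.29 for SLC7A8, -0.30 to 0.054 for SLC1A5, -0.21 to 0.16 for SLC38A1 and -0.068 to 0.066 for SLC38A2. They were -0.053 to 0.14 for SLC1A4 in 1/7MC against MC, and in 1/7MC+Pyr against MC -0.0068 to 0.12 for SLC7A3, -0.054 to 0.23 for SLC1A5 and -0.043 to 0.053 for SLC38A2. In 1/7MC+Pyr+FGF against MC they were -0.037 to 0.51 for SLC7A8, -0.20 to 0.15 for SLC1A5 and -0.058 to 0.077 for SLC38A2. The cause of these changes was not tested. With 3 libraries a group, folds of low precision such as those of SLC7A1 are poorly bounded.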
